A study of Mus musculus with 75 samples.

Results

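A set of 9 transcripts that lymphocytes and plasma cells are known for were followed through RNA-seq libraries of mouse enteric glia: Cd4, Cd3e, Trac, Ms4a4b, Cd79a, Fcmr, Pou2af1, Jchain and Ccr7. They were found by symbol, and all 9 of 9 were present among the 21051 symbols counted for the untreated and 2 h libraries and among the 21076 symbols counted at 24 h. They were chosen by measured values, namely their differences between plexuses or regions of the untreated gut: Cd4 between the myenteric plexuses of colon and small intestine, Ms4a4b and Trac between the plexuses of the colon, and Pou2af1 and Fcmr between those of the small intestine. All untreated values below are therefore a description without a test. The responses to lipopolysaccharide (LPS, a bacterial endotoxin), the effect of genotype and the regions of treated mice are not among the differences named. They were tested, but no such difference is named for Cd3e, Cd79a, Jchain or Ccr7. The set was chosen with earlier results of these data known, so its independence of the tested values is not established.

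The 75 libraries fell into 16 groups and 3 experiments, all from adult mice of both sexes that carry an eGFP reporter transgene, which marks enteric glia. Untreated mice gave glia of the myenteric plexus, which lies between the muscle layers, and of the submucosal plexus, which lies under the mucosa, with 5 colon and 6 small intestinal libraries per plexus. Glia of the myenteric plexus alone were taken 2 h after 1 intraperitoneal injection of LPS at 2 mg/kg or of phosphate-buffered saline (PBS), giving 4 libraries for each region after each injection. The same treatments were given for 24 h to mice with intact Gpr37 (Gpr37WT, here wild type) and to Gpr37-/- mice (here knockout), all with the reporter, again with the myenteric plexus alone. Wild-type small intestine gave 6 PBS and 4 LPS libraries and wild-type colon 4 and 5. Knockout small intestine gave 4 PBS and 5 LPS libraries and knockout colon 5 and 4. How the cells were isolated was not given in the sources used here, and the labels identify the animal at 24 h only, so p-values at 2 h measure the spread between libraries, which may be technical.

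The gut wall holds more lymphocytes than most organs, and most of them sit in the mucosa, in lymphoid follicles and in the submucosa beneath them, while the muscle layers hold few. T cells recognise antigen through a receptor whose alpha chain has its constant part encoded by Trac and whose CD3 signalling complex includes the product of Cd3e. Cd4 marks helper T cells but is also made by some resident macrophages and dendritic cells of the mouse gut. Ms4a4b encodes a membrane protein of T cells. Cd79a encodes a signalling chain of the B cell receptor, and Fcmr the receptor for the Fc part of IgM. Pou2af1 encodes a coactivator that works with octamer-binding factors in B cells and plasma cells. Jchain encodes the joining chain that links IgA or IgM into polymers, the main product of gut plasma cells together with the antibody itself. Ccr7 encodes the receptor that guides naive lymphocytes and mature dendritic cells toward the chemokines CCL19 and CCL21 in lymphoid tissue.

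Library totals ran from 2547296 to 9002546 counts in untreated mice, from 1990744 to 7883251 at 2 h and from 2882539 to 33283346 at 24 h. Levels are CPM, counts relative to the TMM-scaled library size, and 3 counts, the floor used here for a count of 0, correspond to 0.329 to 1.11, 0.359 to 1.46 and 0.0933 to 1.09 CPM in the 3 experiments. The knocked-out gene followed its label: Gpr37 had a median of 6.50 CPM in the 19 wild-type libraries at 24 h, 3 of them at 0, and of 0 CPM in the 18 knockout libraries, none above 0.802 CPM. The label of glia was checked on 10 enteric glial markers, whose summed level was 6437 to 14691 CPM in the untreated myenteric libraries and 569 to 5866 CPM in the submucosal ones. Untreated colon submucosal library male 3 stood apart from the other 4 of its group in most results below, and its values are given with them. In such bulk libraries, fewer cells of a type and less RNA per cell cannot be told apart.

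The T cell genes were near the floor in every untreated myenteric library, except Cd4 in the small intestine. Cd3e, the CD3 epsilon chain, had no count in any of the 5 colon myenteric libraries, and in the small intestine only male 3 had one, at 0.151 CPM. In the colon submucosal plexus Cd3e stood at 14.0, 30.6, 17.5 and 15.5 CPM in female 1, female 2, female 3 and male 1, and at 0 in male 3. The 6 submucosal libraries of the small intestine ran from 6.85 to 96.0 CPM with a median of 42.2. The plexuses did not overlap in the small intestine, whereas in the colon male 3 tied with the myenteric libraries at 0.

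Trac, the T cell receptor alpha constant gene, was at 0 in all 5 colon myenteric libraries and in 5 of 6 small intestinal ones, female 3 having 0.856 CPM. Submucosal colon libraries had 32.7, 51.2, 18.8 and 36.99 CPM, and male 3 had 0.380 CPM. In the submucosal small intestine the lowest value was 28.5 CPM, the median 59.5 and the highest 100.8. No submucosal library fell within the myenteric range of its own region, although male 3 of the colon rested on a few counts. Against the group floor, the colon value of submucosal Trac was at least 48.2-fold higher. The ratio of small intestinal means was 417, and it rests on female 3, which held all 6 myenteric counts: the fitted log2 difference of 8.23 was 11.35 without that library.

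Ms4a4b showed the same layout. Its colon myenteric libraries were all at 0, and the submucosal ones had 44.7, 87.0, 32.5 and 49.9 CPM, with 0.190 CPM in male 3. The small intestine gave 0 to 0.463 CPM (median 0.0713) in the myenteric plexus and 11.4 to 76.8 CPM (median 37.2) in the submucosal plexus. The submucosal means of Ms4a4b differed by less than their spread between libraries, colon having 42.9 ± 31.3 CPM (SD, n = 5) and small intestine 41.5 ± 25.2 CPM (n = 6).

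Cd4 differed from the other 3 T cell genes in small intestinal myenteric glia. There it was counted in all 6 libraries, from 2.27 to 19.3 CPM with a median of 6.31. In the colon myenteric plexus 4 libraries were at 0 and male 2 had 0.604 CPM. The submucosal libraries had 29.4, 87.3, 28.4 and 30.0 CPM in the colon, with 2.85 CPM in male 3, and 22.9 to 139.7 CPM (median 88.3) in the small intestine. The 2 plexuses of the small intestine did not overlap, but the mean ratio of 9.08 was the smallest of the 9 genes there.

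The B cell genes were likewise near the floor in the myenteric plexus. In the small intestine Cd79a had 71.4 to 531 CPM (median 358) in the submucosal and 0 to 2.94 CPM (median 0.263) in the myenteric libraries. In the colon the submucosal libraries had 87.2, 108.1, 74.6 and 91.7 CPM and male 3 had 1.52 CPM, while the myenteric libraries had 0.164, 0.175, 0.435, 3.63 and 0 CPM. Only male 3 overlapped with the myenteric range, whose top was male 2. Without the single myenteric library highest in Cd79a, male 2 in each region, the fitted log2 difference went from 6.73 to 8.62 (colon) and from 9.05 to 10.46 (small intestine).

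Fcmr was at 0 in all 11 myenteric libraries. Its submucosal values were 28.9, 29.7, 8.63 and 23.3 CPM in the colon, with male 3 at 0, and 26.8 to 236 CPM (median 156) in the small intestine. Against the group floor submucosal Fcmr was at least 31.2-fold higher (colon) and at least 223.5-fold higher (small intestine).

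Pou2af1, the octamer coactivator gene, had no count in the 6 myenteric libraries of the small intestine and 30.8 to 358 CPM (median 248) in the 6 submucosal ones, at least 359.7-fold higher. In the colon the myenteric libraries had 0, 0, 3.91, 0.907 and 1.53 CPM and the submucosal ones 47.7, 78.1, 118.8 and 75.8 CPM. Male 3 was at 0, so the colon groups overlapped.

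Jchain was by far the highest member. In the submucosal small intestine it ran from 13834 to 131176 CPM with a median of 30054, against 2.88 to 1081 CPM (median 11.8) in the myenteric plexus. In the colon its submucosal libraries had 18574, 31535, 23300.5 and 44740.3 CPM and male 3 had 727 CPM, while the myenteric libraries had 17.7, 98.6, 31.8, 291 and 2.96 CPM. Every submucosal library was above every myenteric library of its region, male 3 included. Without small intestinal myenteric male 2, which held 1081 CPM, the fitted log2 difference there went from 7.74 to 10.81, and without colon myenteric male 2 it went from 8.08 to 9.30. Jchain alone made up 0.0754% to 12.1% of all counts of the 11 submucosal libraries, with a median of 2.57%.

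Because the members shared one layout across plexuses and the product of Pou2af1 acts through octamer-binding factors, the DNA upstream of the members was read for the octamer word ATGCAAAT. RefSeq promoter windows were matched for 6 of the 9 members, not for Cd4, Trac or Ccr7. None of the 6 held the exact octamer on either strand in 300 bases (250 before to 50 after the start), and 1.74% of all 32851 windows did. The words GGGNNTTCC, similar to sites of NF-kappa B, and CCCNNGGG, a core of sites of the B cell factor EBF, were not found in the 6 windows either. They were found in 5.82% and 13.7% of all windows. Other forms of these sites were not searched for. With 1 mismatch allowed, which was tried after the exact search, the octamer was found in the 250 bases before the start of Pou2af1 alone among the members, and in 16.6% of all such windows. The Pou2af1 window is chr9:51213440-51213689 on the plus strand of GRCm38.p6, and its near match, in capitals, begins 232 bases before the start, at -232. The Jchain window, shown beside it as that of the highest member, is chr5:88527898-88528147 on the minus strand and holds no near match.
Pou2af1: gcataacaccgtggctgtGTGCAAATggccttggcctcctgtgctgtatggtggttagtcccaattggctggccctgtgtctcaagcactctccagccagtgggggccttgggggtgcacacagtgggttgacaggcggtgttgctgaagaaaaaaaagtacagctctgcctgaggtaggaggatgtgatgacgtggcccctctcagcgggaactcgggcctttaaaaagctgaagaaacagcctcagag
Jchain: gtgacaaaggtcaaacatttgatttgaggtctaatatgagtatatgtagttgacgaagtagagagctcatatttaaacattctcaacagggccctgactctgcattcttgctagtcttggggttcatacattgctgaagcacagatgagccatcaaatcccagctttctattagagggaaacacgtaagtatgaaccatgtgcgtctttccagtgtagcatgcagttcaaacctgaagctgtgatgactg

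The gene models, from GENCODE M21 on GRCm38, place Pou2af1 at chr9:51213708-51240080 on the plus strand and Cd3e at chr9:44998740-45009627 on the minus strand. Cd4 is at chr6:124864692-124888221 and Jchain at chr5:88519809-88527891, both on the minus strand. Trac is at chr14:54220521-54224206, Ms4a4b at chr19:11443553-11467055, Cd79a at chr7:24897381-24902197 and Fcmr at chr1:130865669-130880791, all on the plus strand. Ccr7 is at chr11:99144196-99155077 on the minus strand.

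Ccr7, the homing receptor, was at 0 in all 6 small intestinal myenteric libraries and in 4 of 5 colon ones, male 1 having 1 count (0.217 CPM). Its submucosal values were 38.6, 34.5, 8.75 and 57.0 CPM in the colon, with male 3 at 0. In the submucosal small intestine the lowest was male 3 with 2 counts (0.719 CPM), the median was 70.3 CPM and the highest 116.5 CPM. The ratio of pooled colon counts, scaled by the pooled library sizes, was 695 with a 95% counting interval of 124 to 27500, since it rests on 1 myenteric count.

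**Figure D1:**
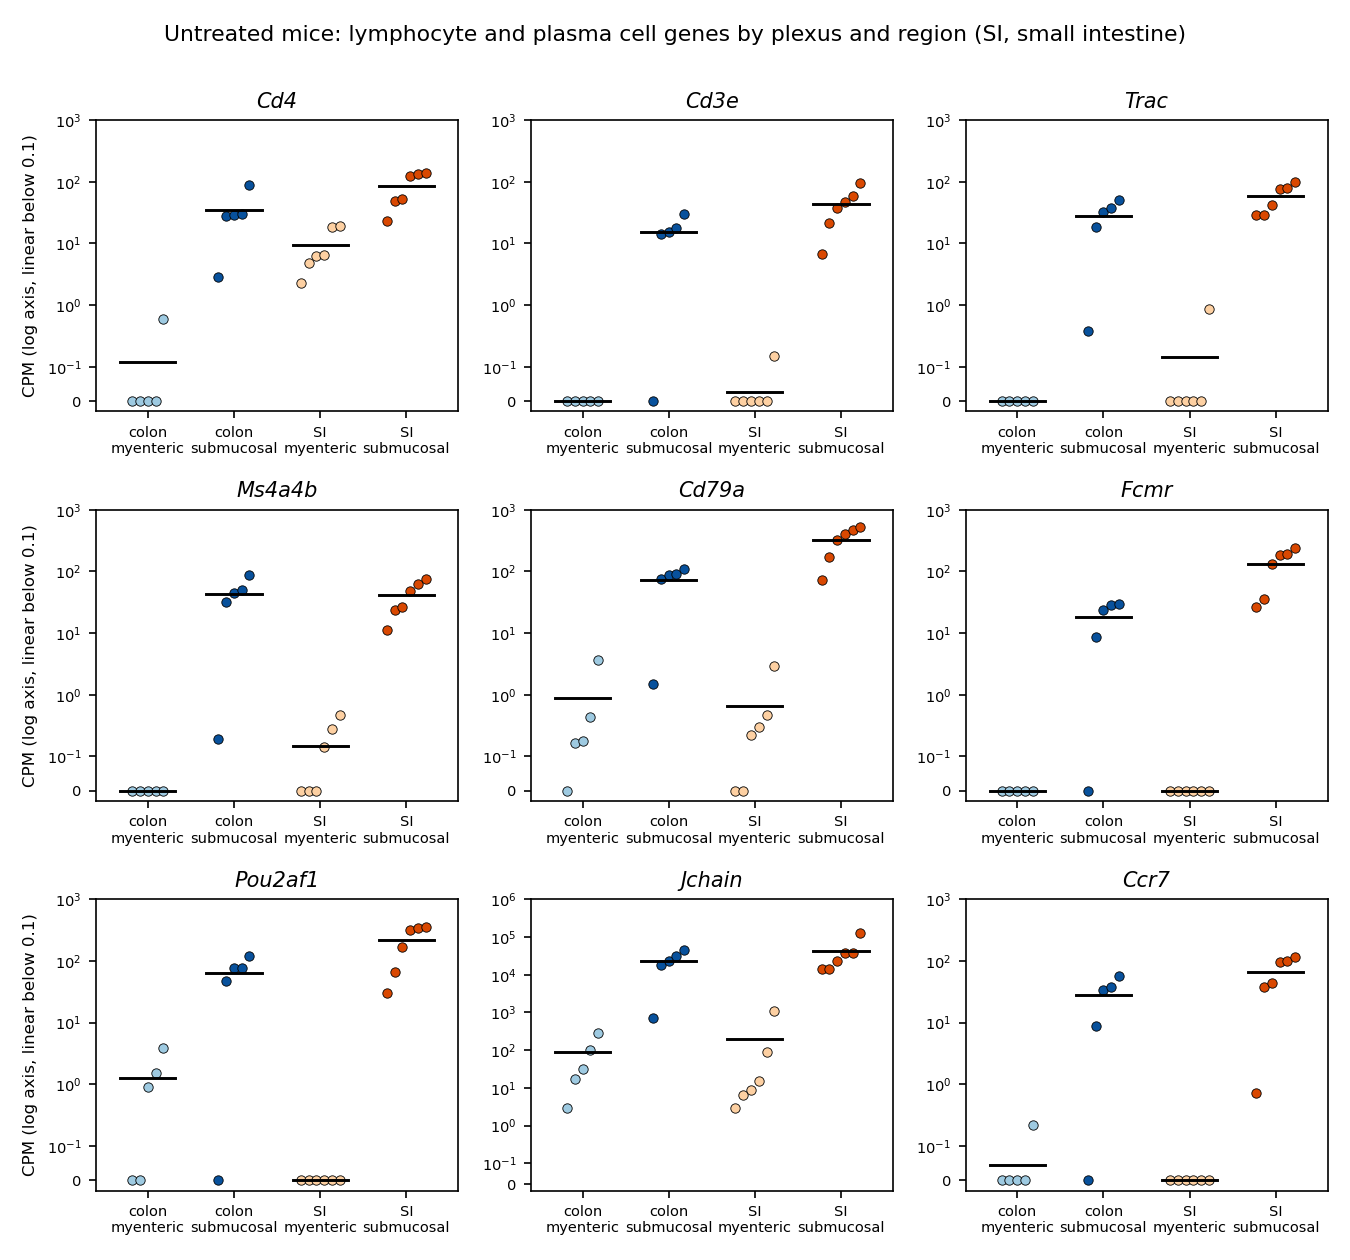
Level of each of the 9 genes in the 22 untreated libraries, in CPM on a log axis that is linear below 0.1, by region and plexus; each point is 1 library and each bar a group mean. Submucosal libraries lie above myenteric ones in every panel, apart from colon submucosal male 3, which is at 0 for Cd3e, Fcmr, Pou2af1 and Ccr7, and Cd4 has counts in all 6 myenteric libraries of the small intestine and in 1 of the colon.

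Set against all genes, these untreated patterns can be read only as a description of how the members were picked. In the small intestine 9 of 9 members had every submucosal library above every myenteric one, as did 13.4% of the 14090 genes tested. In the colon 4 of 9 did (Cd4, Trac, Ms4a4b and Jchain), as did 5.46% of genes. Without colon male 3, 9 of 9 did, and 11.2% of genes. The median fitted log2 difference, submucosal minus myenteric, over the members was 8.89 for colon and 9.05 for small intestine, while all genes had medians of -0.0057 and 0.058.

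The lists of T cell, B cell and plasma cell markers, which leave the members out, had a median in the same direction, while 5 germinal centre genes had median log2 differences of -0.34 (colon) and 0.84 (small intestine). In the small intestine 19 of 25 T cell genes, 17 of 17 B cell genes and 9 of 10 plasma cell genes were higher in the submucosal plexus without overlap. The colon counts, with male 3 included, were 1 of 25, 7 of 17 and 6 of 10, so the T cell share was below the 5.46% of all genes. Male 3, low in leukocyte genes, can by itself remove a gene from these counts, and they were not made without it. Germinal centre genes gave 2 of 5 and 0 of 5. In the submucosal colon summed T cell markers were 16.5 to 625 CPM, against 21.5 to 39.2 CPM in its myenteric plexus. Summed T cell marker levels were 417 to 1158 CPM in the submucosal small intestine and 12.7 to 38.3 CPM in its myenteric plexus. For B cell markers the sums were 662 to 3462 and 17.4 to 84.6 CPM, and for plasma cell markers 940 to 5224 and 208 to 307 CPM.

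Markers of other cell types differed between the plexuses of the small intestine too. Summed macrophage markers were 2567 to 14109 CPM in the submucosal and 168 to 2657 CPM in the myenteric small intestine, and 6 of 15 were higher without overlap. Summed epithelial markers were 2214 to 11407 against 38.1 to 451 CPM, with 9 of 10 higher. Enteric glial markers went the other way, with 9 of 10 lower without overlap in the submucosal small intestine and 5 of 10 in the submucosal colon. Of all genes 12.1% (small intestine) and 7.15% (colon) were lower without overlap. In the colon 2 of 15 macrophage genes were higher and 1 lower without overlap, and 2 of 10 epithelial genes were higher. The colon sums overlapped, with 379 to 6194 (submucosal) and 742 to 1022 CPM (myenteric) for macrophage markers and 2827 to 14344 and 23.6 to 4411 CPM for epithelial ones. Their part in the levels of the 9 genes was not tested.

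**Figure D2:**
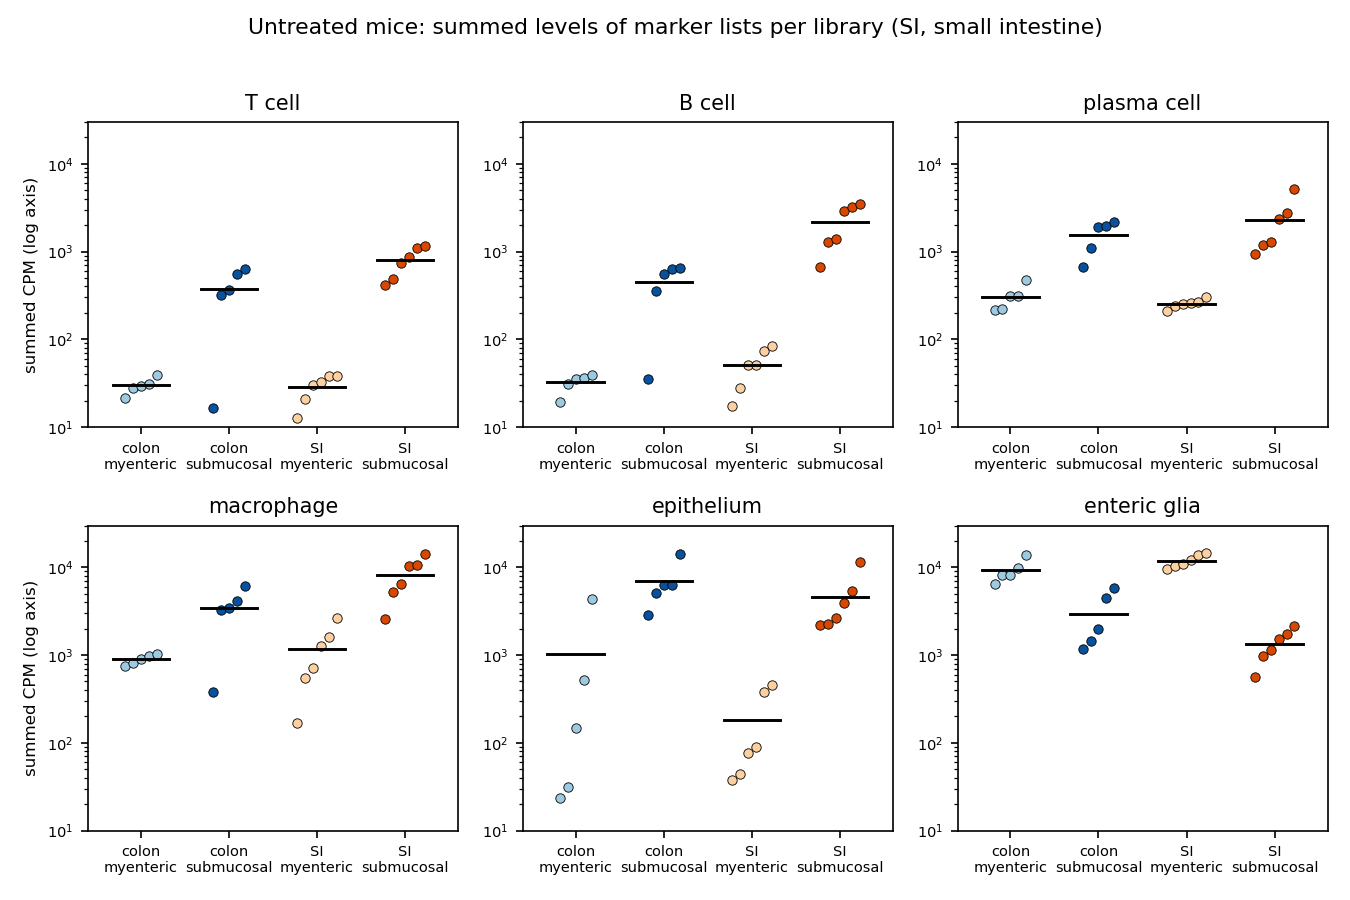
Summed level of 6 lists of cell type markers in each untreated library, in CPM on a log axis, by region and plexus; each point is 1 library. T cell, B cell, plasma cell, macrophage and epithelial sums are higher and glial sums lower in most submucosal libraries, and the lowest colon submucosal sum for T cell markers, 16.5 CPM, lies below those of the colon myenteric libraries.

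Colon submucosal male 3 was low in leukocyte genes and high in epithelial and glial ones. Ptprc, the pan-leukocyte gene, was at 4.94 CPM in it against 183 to 274 CPM in the other 4 libraries, and Csf1r, a macrophage receptor gene, at 25.8 against 277 to 682 CPM. Its plasma cell gene Mzb1 was at 9.11 CPM, where the others had 278 to 719 CPM. Epithelial Epcam was at 1250 CPM against 434 to 901 CPM and Pigr, the epithelial transporter of polymeric IgA, at 1538 against 518 to 732 CPM. Glial Sox10 was at 248 CPM against 18.1 to 148 CPM. Without male 3 the colon submucosal means were 43.8 ± 29.0 CPM for Cd4, 90.4 ± 13.8 CPM for Cd79a and 29538 ± 11463 CPM for Jchain (SD, n = 4).

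The submucosal small intestine also divided by sex. Every female library was above every male library, 3 against 3, for 6 of 9 members (Cd4, Trac, Ms4a4b, Cd79a, Fcmr and Ccr7), against 14% of all genes. Cd4 averaged 132 ± 7.94 CPM in females and 41.5 ± 16.3 CPM in males, and Cd79a 466 ± 66.5 and 188 ± 124 CPM. For Ccr7 the means were 105 ± 10.3 and 27.6 ± 23.4 CPM. Jchain went the other way in its means, 29677 CPM in females and 56078 CPM in males, but the sexes overlapped. Ptprc averaged 740 CPM in females and 329 CPM in males, and Csf1r 1589 and 517 CPM. Epithelial Epcam was at 288 to 432 CPM in females and 567 to 1537 CPM in males, without overlap. The submucosal colon did not divide in this way. There male 1 lay within the female range for Cd4, Trac, Ms4a4b, Cd79a and Fcmr and above it for Ccr7. Colon male 3 lay below the female range for all of these. The part of leukocyte and epithelial content in the sex difference of the small intestine was not tested.

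Between the regions, Cd4 was the only member whose untreated myenteric groups did not overlap, with every colon library below every small intestinal one, as 1.96% of genes had. Its fitted difference, colon minus small intestine, was -6.63 ± 1.10 on the log2 scale (SE), or -8.75 without colon male 2, and the scaled ratio of pooled counts, small intestine to colon, was 136 with a counting interval of 37.4 to 1129, since the colon group held 2 counts, both in male 2. Of the T cell receptor complex, Cd3d was at 0 in all 5 colon libraries and at 0.846 CPM in 1 small intestinal library. Trbc2 never passed 1.23 CPM, so both genes were near the floor in both regions. Of 15 macrophage genes 1 was higher in every colon library than in every small intestinal one (Lyve1, 265 to 732 CPM against 0 to 47.7 CPM), and none was lower in that way. Csf1r and C1qa overlapped between the regions and reached higher in the small intestine, Csf1r with 24.8 to 368 CPM against 27.2 to 60.9 CPM in the colon and C1qa with 22.7 to 404 against 10.3 to 153 CPM. Ptprc had 3.63 to 38.1 CPM against 0 to 20.8 CPM. Their part in the Cd4 difference was not tested.

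In the submucosal plexus 0 of 9 members were lower in every colon library than in every small intestinal library, against 2.29% of genes; without male 3 the count was also 0, against 2.85%. The largest fitted differences, colon minus small intestine, belonged to the B cell genes. Fcmr differed by -2.89 ± 0.89 and Cd79a by -2.17 ± 0.80 on the log2 scale, which correspond to means 7.39-fold and 4.501-fold higher in the small intestine. Pou2af1 followed with -1.75, and Jchain had -0.85 ± 1.26. Ms4a4b, at 0.04, was the one member with no lower fitted level in the colon.

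Levels of different genes can be set beside each other only per length, here as mean CPM per kb of exon. In the submucosal small intestine the order was Jchain at 17035, Cd79a at 224, Pou2af1 at 84.5, Fcmr at 77.1, Trac at 63.7, Ccr7 at 33.5, Cd4 at 21.5, Cd3e at 10.9 and Ms4a4b at 4.73 CPM per kb. In the submucosal colon Jchain stood at 9446 and Cd79a at 49.9 CPM per kb, and Trac, at 30.0, came before Pou2af1, at 25.1. The ranges over libraries of neighbours in either order overlapped, except those of Jchain and Cd79a.

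Across the 11 submucosal libraries the 36 pairs of members had Pearson correlations of log2 CPM from 0.414 (Jchain and Ccr7) to 0.971 (Cd3e and Pou2af1), with a median of 0.866. These points share libraries, and 1 library carried much of the relation. Without colon male 3 the 36 correlations ran from -0.611 (Jchain and Ccr7) to 0.890 (Cd4 and Trac), with a median of 0.522. The libraries also fall into regions and sexes, so these values are descriptive.

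Over all 22 untreated libraries the genes most like each member by Pearson correlation of log2 CPM were mostly lymphoid. These correlations span both plexuses, and the part of the division between them was not tested. For Cd3e the closest were Fcrla at 0.991, Tcrg-C2 at 0.990 and Cd7 at 0.987. For Trac the closest was Lat, a T cell adaptor gene, at 0.993, and for Ms4a4b it was Cd3d at 0.988. For Cd79a the closest was Ly6d at 0.988 and for Fcmr it was Ccr6 at 0.996, both genes of B cells. Pou2af1 was closest to Cd7 at 0.977 and Ccr7 to Sh2d2a at 0.983. Jchain was closest to 2 immunoglobulin kappa joining segments, Igkj2 at 0.982 and Igkj5 at 0.975. Cd4 again stood apart, with Ccr1 at 0.949, Sla at 0.941 and Slc11a1 at 0.939, the first and the third being genes of myeloid cells.

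A count of members with more than 3 counts summarises how much of the set each library held. Submucosal libraries held 9 of 9, except 8 in small intestinal male 3 and 3 in colon male 3. Untreated myenteric libraries held 1 to 3. At 2 h the count was 1 to 4 after PBS in either region, 3 to 6 after LPS in the small intestine and 0 to 2 after LPS in the colon. At 24 h most libraries held few, but single libraries of the myenteric plexus held nearly all: 9 in wild-type PBS small intestine of mouse 14, 8 in wild-type LPS small intestine of mouse 8 and in knockout LPS small intestine of mouse 6, and 7 in wild-type colon of mouse 14 (PBS) and mouse 3 (LPS).

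**Figure D3:**
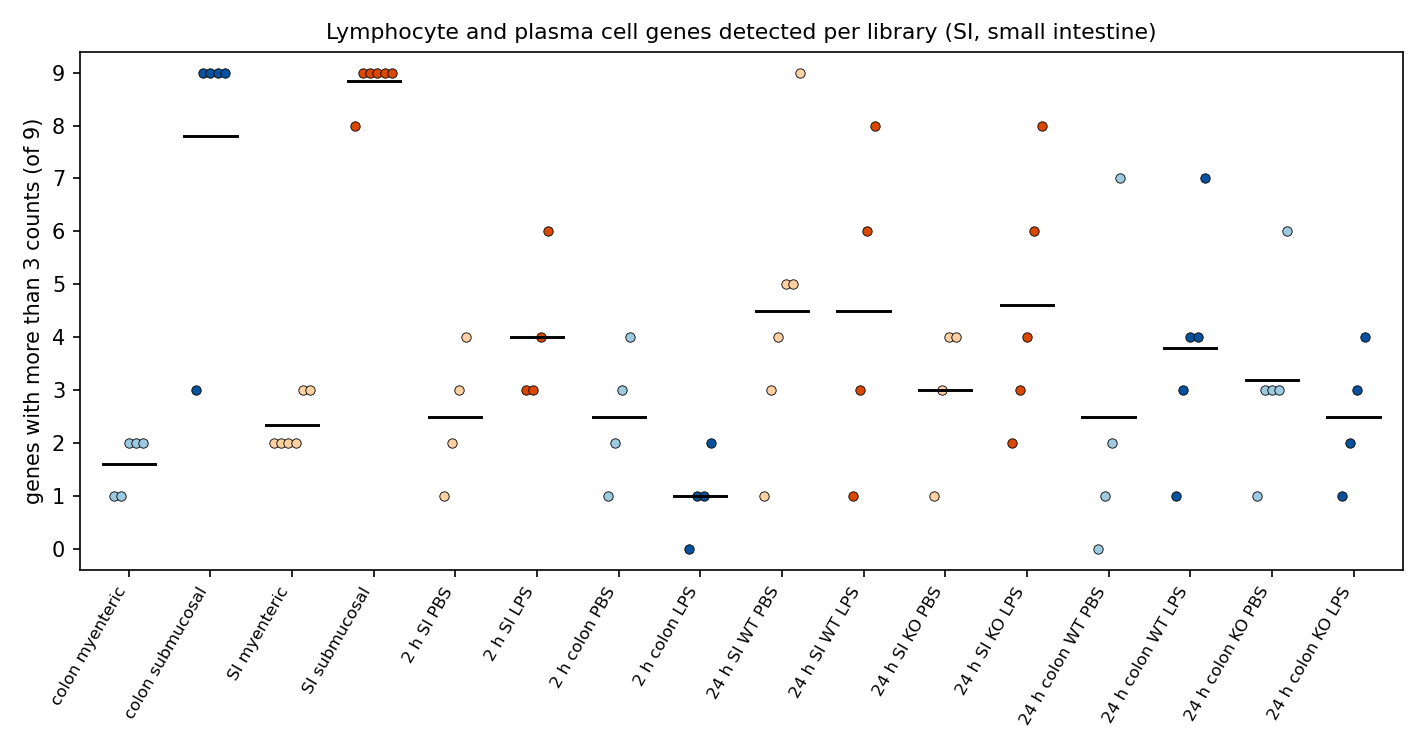
Number of the 9 genes with more than 3 counts in each of the 75 libraries, by group; each point is 1 library and each bar a group mean. Submucosal groups sit at 9 apart from colon male 3 at 3 and small intestinal male 3 at 8, and the myenteric groups spread from 0 to 9.

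LPS at 2 h raised 1 member in small intestinal myenteric glia. Of the 9 genes only Cd79a, Jchain and Ccr7 had enough counts to be tested at 2 h, and Jchain was called at an adjusted p under 0.05 (edgeR quasi-likelihood, Benjamini-Hochberg), where 1.1% of 13107 genes were. Jchain stood at 11.9, 294, 901 and 98.5 CPM after LPS in female 1, male 2, female 3 and male 4, and at 17.0, 12.7, 5.82 and 8.26 CPM after PBS. The groups overlapped through female 1 after LPS, and the other 3 LPS libraries were above all 4 PBS libraries. The means of 326 ± 401 and 10.9 ± 4.94 CPM (SD, n = 4) differed 29.8-fold, with a log2 fold change of 4.91 ± 1.14 (SE) and an adjusted p of 0.0478. The call was lost when 6 of the 8 libraries were left out singly: without LPS female 3 the log2 fold change was 3.63 and the adjusted p 0.213, and without LPS male 2 it was 0.0758. It was also lost without any 1 of the 4 PBS libraries (adjusted p 0.130 to 0.192) and with sex as a covariate (adjusted p 0.0713). The same held with the replicate as a block (adjusted p 0.279) and in a fit of the 2 groups alone (adjusted p 0.0719).

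Other genes of plasma cells and B cells were examined beside Jchain at 2 h. Mzb1, a plasma cell chaperone gene, was counted in LPS female 3 only, at 2.08 CPM, and Tnfrsf17, the plasma cell receptor BCMA, in PBS female 3 only, at 0.803 CPM. Of the tested markers 0 of 5 T cell, 0 of 5 B cell and 0 of 5 plasma cell genes were called. Mature dendritic cell genes gave 1 of 9 called (Relb, log2 fold change 2.55) and 3 of 9 higher without overlap, as 3.44% of all genes were. The summed level of the dendritic cell list was 370 to 766 CPM after LPS and 115 to 162 CPM after PBS. LPS female 3, the library highest in Jchain, was also the only one of the 8 with Pou2af1 (22.0 CPM) and Fcmr (5.07 CPM), and the highest in Cd79a (10.3 CPM). The 10 enteric glial markers summed to 4849 to 9281 CPM after LPS and 3971 to 8295 CPM after PBS, and 0 of 10 were called. Epcam was at 0 to 6.76 and 0.201 to 3.41 CPM. Erythrocyte markers summed to 9.10 to 348 CPM after LPS and 266.5 to 2803 CPM after PBS, with overlap. The part of other cell types in the Jchain result was not tested.

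In the 2 h colon no member was called, while 0.778% of genes were; 1 member had an unadjusted p under 0.05, and the DESeq2 count of members was also 0. Jchain stood at 62.0, 61.1, 0.821 and 45.2 CPM after LPS in female 1, male 2, female 3 and male 4, and at 9.33, 48.9, 60.4 and 26.9 CPM after PBS, a log2 fold change of 0.23 ± 0.97 with an adjusted p of 1 (edgeR). The groups overlapped across most of their range. Ccr7 was at 0 in all 4 LPS colon libraries and counted in 2 PBS ones, at 27.5 and 8.04 CPM (adjusted p 0.549). In the small intestine the layout was the opposite, with 0 in all 4 PBS libraries and 15.9 and 2.47 CPM in male 2 and female 3 after LPS (adjusted p 0.802).

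Whether the LPS response differed between regions at 2 h was tested as an interaction. No gene was called (0% of 13107), 452 had an unadjusted p under 0.05, and DESeq2 called 57 genes and none of the members. For Jchain the response in the colon minus that in the small intestine was -4.68 ± 1.45 on the log2 scale, and for Ccr7 it was -15.92 ± 4.43 (edgeR adjusted p 0.9999 each). These were the 2 of 3 tested members with an unadjusted p under 0.05. The regions averaged over both treatments gave 0 members called, while 3.84% of genes were; no member had an unadjusted p under 0.05 there and DESeq2 called none. Jchain had -0.60 ± 0.70 on the log2 scale, colon minus small intestine (adjusted p 0.796).

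Cd4 had too few counts to be tested at 2 h. It was counted at 10.8 CPM in PBS female 3 and at 6.00 and 4.90 CPM in LPS female 1 and male 4 of the small intestine. In the colon only LPS male 4 had any, at 0.554 CPM. The remaining 5 libraries of the small intestine and 7 of the colon were at 0.

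At 24 h 8 of the 9 genes could be tested, all but Fcmr. In wild-type colon LPS raised 1 member, Ccr7, against 7.96% of 14903 genes called. Ccr7 stood at 3.64, 56.8, 535.4, 1.36 and 32.9 CPM after LPS in mice 13, 16, 3, 5 and 8. After PBS it was at 0 in mice 14, 19 and 24, and mouse 22 had 1 count (0.0351 CPM). All 5 LPS libraries were above all 4 PBS libraries. The log2 fold change was 12.04 ± 3.53 with an adjusted p of 0.0323 (edgeR), and the scaled ratio of pooled counts, 6663, has a counting interval of 1195 to 263300 because the PBS group held 1 count. Without LPS mouse 3 the log2 fold change was 9.67 and the adjusted p 0.0799, and without any 1 of the 4 PBS libraries the adjusted p was 0.0772 to 0.0972, so the call was lost in these 5 of 9 cases. The 4 PBS mice carry numbers of 11 and above and LPS mice 3, 5 and 8 numbers of 10 and below. With that division of mouse numbers as a covariate the log2 fold change was 9.57 and the adjusted p 0.0631, which also ends the call.

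Genes of mature dendritic cells, which also carry CCR7, were called in the same comparison. Ccl22, a chemokine gene of such cells, had 2.91, 11.7, 121.9, 0 and 18.2 CPM after LPS in mice 13, 16, 3, 5 and 8 and 0 in the 4 PBS libraries, with a log2 fold change of 11.16 ± 3.18 (adjusted p 0.0294). Ccl17 had 17.5, 34.8, 126, 4.09 and 105 CPM against 0 to 0.227 CPM (log2 fold change 9.45, adjusted p 0.00939), and Relb, a transcription factor gene of the NF-kappa B family, rose by 1.45 on the log2 scale (adjusted p 0.0379). These were 3 of the 10 mature dendritic cell genes tested. In comparison 0 of 20 T cell genes, 1 of 10 B cell genes (Spib) and 0 of 9 plasma cell genes were called, and of 10 genes of CCR7 ligands and lymphoid homing, 0. Of 9 natural killer and innate lymphoid genes 1 was called, the chemokine gene Ccl5, at 922 to 2607 CPM after LPS and 3.76 to 33.8 CPM after PBS. Fibroblast markers summed to 339 to 8583 CPM after LPS and 11133 to 19267 CPM after PBS, and 2 of 5 were called lower. Their part in the Ccr7 result was not tested. Over the 37 libraries at 24 h the gene most like Ccr7 was Ccl22, with a correlation of 0.767. U2af1, at 0.751, and Trbc2, at 0.748, came next.

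The other members in wild-type colon at 24 h were carried by 1 or 2 libraries. Jchain stood at 0, 0.479, 2601, 10.0 and 1399 CPM after LPS in mice 13, 16, 3, 5 and 8 and at 0.606, 2.27, 0.0351 and 0.965 CPM after PBS, and it was not called (log2 fold change 9.76 ± 3.60, adjusted p 0.0825). Cd79a had 36.8 CPM in LPS mouse 3, 0.227 CPM in mouse 5 and 0 in the other 3 (adjusted p 0.131). LPS mouse 3 also held 26.9 CPM of Ms4a4b. The median log2 difference over the 8 tested members was 3.18, where all genes had -0.027, and 3 of the 8 had an unadjusted p under 0.05.

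The libraries high in Jchain in wild-type colon also held epithelial RNA. Epcam was at 702 and 846 CPM in LPS mice 3 and 8, at no more than 0.839 CPM in the other 3 LPS libraries and at 0 to 75.2 CPM after PBS. Mzb1 was at 110 and 31.0 CPM and Cd3d at 21.0 and 8.44 CPM in the same mice 3 and 8. Ptprc reached 105 CPM in mouse 3. In knockout colon, PBS mouse 20 had more Epcam, at 919 CPM, but Jchain made up only 0.000304% of its counts. PBS mouse 7 of that group, with 1471 CPM of Jchain, was not over 500 CPM of Epcam. Without the 24 h libraries over 500 CPM of Epcam, a limit set after the data were seen, Ccr7 had a log2 fold change of 9.47 ± 3.34 and an adjusted p of 0.101, and no member was called.

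**Figure D4:**
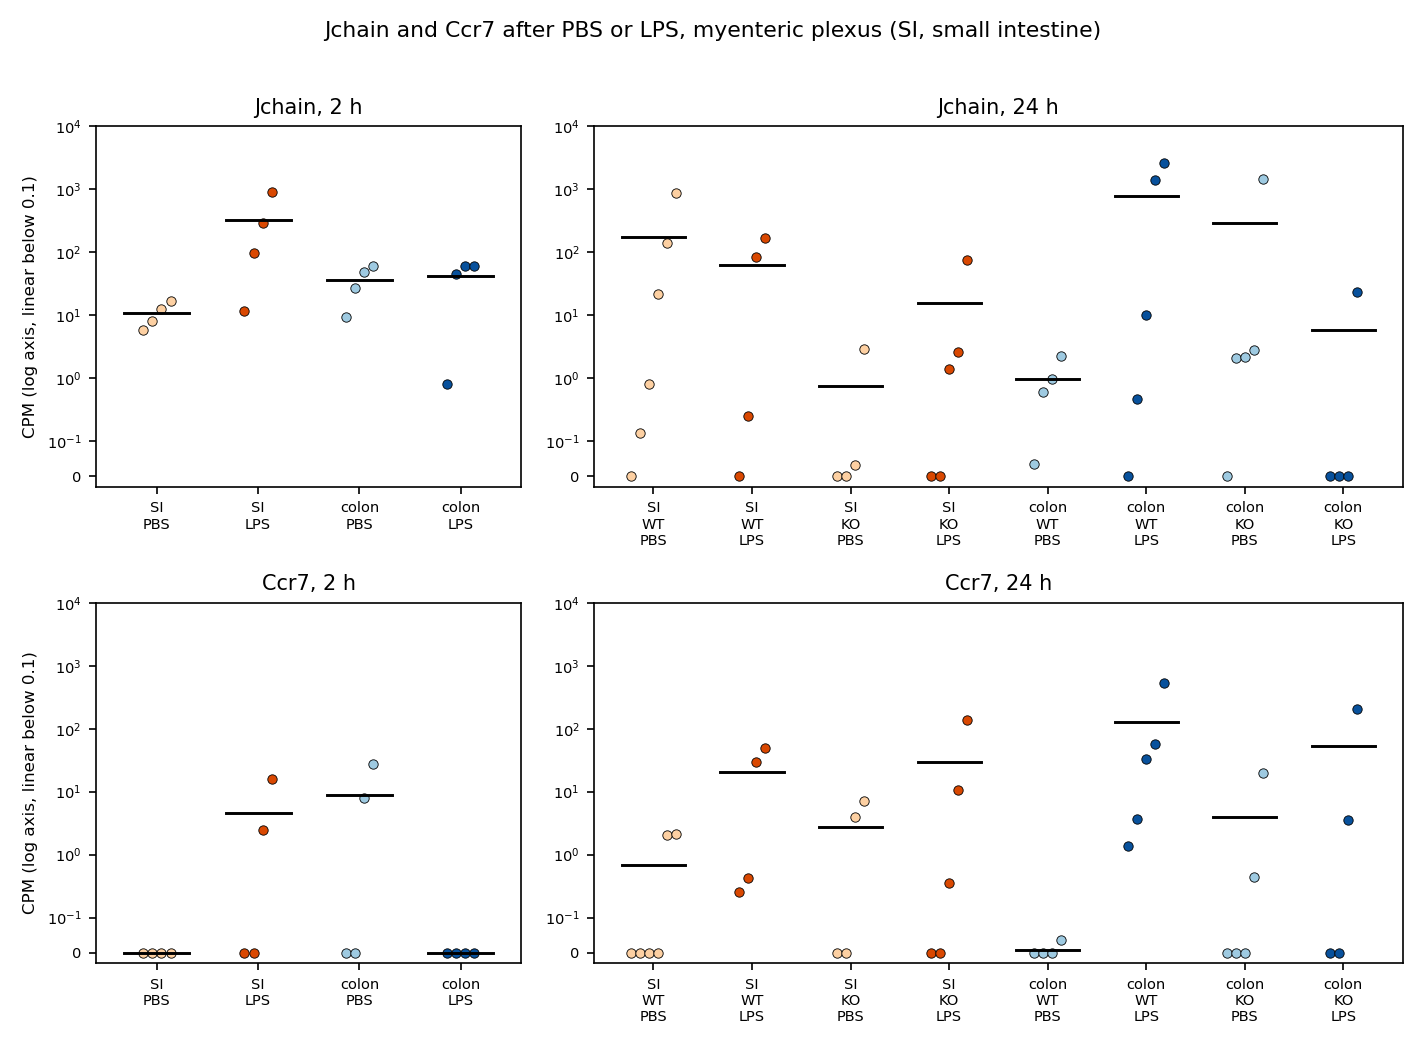
Levels of Jchain and Ccr7 in every myenteric library at 2 h and 24 h after PBS or LPS, in CPM on a log axis that is linear near 0, by region and genotype; each point is 1 library and each bar a group mean. Jchain at 2 h is raised in 3 of 4 LPS libraries of the small intestine, and Ccr7 at 24 h is above all PBS values in the 5 LPS libraries of wild-type colon.

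In wild-type small intestine at 24 h no member was called, while 7.17% of genes were; DESeq2 called none either, and 1 member had an unadjusted p under 0.05. That was Ccr7, with 30.0, 0.423, 0.257 and 50.2 CPM after LPS in mice 13, 16, 3 and 8. After PBS it had 2.14 and 2.04 CPM in mice 14 and 22 and 0 in the other 4 (log2 fold change 4.85 ± 2.09, adjusted p 0.165). The groups overlapped through LPS mice 16 and 3. The ligand gene Ccl19 rose by 4.81 on the log2 scale (adjusted p 0.00995), as did Cxcl13, which draws B cells, by 6.89 (adjusted p 0.00394). Of 20 T cell genes tested 1 was called higher (Trdc), and of 9 natural killer and innate lymphoid genes 1, again Ccl5, at 805 to 2947 CPM after LPS and 2.83 to 24.2 CPM after PBS. Jchain was highest after PBS, at 876.5, 140.5 and 21.7 CPM in mice 14, 19 and 24, and had 168 and 85.4 CPM after LPS in mice 13 and 8, with an adjusted p of 0.785.

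In knockout mice LPS raised no member in either region at 24 h, where 0.718% of all genes passed the threshold for small intestine and 0.718% for colon. In knockout small intestine Ccr7 had 135.5, 10.8 and 0.358 CPM in LPS mice 6, 21 and 10 and 0 in mice 11 and 17, against 7.03 and 3.98 CPM in PBS mice 12 and 20 and 0 in the other 2 (log2 fold change 3.38 ± 2.20, adjusted p 0.623). Knockout colon had 207 and 3.55 CPM in LPS mice 2 and 17 and 0 in mice 11 and 21, and 19.6 and 0.446 CPM in PBS mice 7 and 15 (log2 fold change 3.77 ± 2.11, adjusted p 0.477). Both pairs of groups overlapped at 0.

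Other members in knockouts again came from few libraries. Pou2af1 in the small intestine was counted in LPS mouse 6 alone, at 8.99 CPM (unadjusted p under 0.05, adjusted p 0.278). In the colon PBS mouse 7 held 1471 CPM of Jchain, 73.5 CPM of Cd3e, 43.5 CPM of Ms4a4b and 13.5 CPM of Cd79a, where the other 4 PBS libraries had no more than 2.80 CPM of any of these. Cd79a was at 0 in all 4 LPS colon libraries (log2 fold change -7.63 ± 2.87, adjusted p 0.256), the only member there with an unadjusted p under 0.05. DESeq2 called it, and it called no member in the small intestine.

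Knockout and wild type were compared within each treatment and region, and no member was called in any of the 4 comparisons. After PBS no gene was called for small intestine (0%; 256 genes with an unadjusted p under 0.05, and 57 by DESeq2) or for colon (0%; 629 and 76). Of the members, 2 and 3 had an unadjusted p under 0.05. Among them Jchain was lower in knockout small intestine, by -7.84 ± 3.32 on the log2 scale, and higher in knockout colon, by 8.32 ± 3.40, each with an adjusted p of 1 (edgeR). After LPS 0.0134% of genes were called in the small intestine, with no member at an unadjusted p under 0.05 and none called by DESeq2. In the colon it was 0.429% of genes, with 2 members at an unadjusted p under 0.05, Cd79a with -9.10 ± 2.98 (adjusted p 0.140) and Jchain with -7.18 ± 3.20 (adjusted p 0.254); DESeq2 called Cd79a.

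The response to LPS was compared between genotypes by an interaction. In the small intestine no gene was called (0%; 578 genes with an unadjusted p under 0.05, and 59 by DESeq2), and none of the members had an unadjusted p under 0.05. In the colon no gene was called either (0%; 2009, and 350 by DESeq2, with Cd79a and Jchain among them). There the response of knockouts minus that of wild types was -13.26 ± 3.72 for Cd79a, -15.50 ± 4.67 for Jchain (adjusted p 0.170 each) and -8.27 ± 3.85 for Ccr7 (adjusted p 0.337). The Ccr7 response of wild-type colon is thus not shown to differ from that of knockout colon. PBS mouse 7 of the knockouts and LPS mice 3 and 8 of the wild types hold most of the Jchain in these 4 groups.

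Between colon and small intestine at 24 h, over all 4 groups of each, no member was called, while 7.72% of genes were; 2 members had an unadjusted p under 0.05, and DESeq2 called 1 (Cd79a). Cd4, the gene that separated the untreated regions, averaged 0.684 CPM (colon) and 1.59 CPM (small intestine). Its log2 difference was -2.34 ± 0.91, the same sign as in untreated mice, with an adjusted p of 0.124. It was -1.18 without LPS mouse 8 of wild-type small intestine, whose group is then all at 0, -3.14 without LPS mouse 2 of knockout colon (adjusted p 0.0528) and -3.88 with the mouse as a block (adjusted p 0.249). Cd4 was at 0 in all 5 PBS colon libraries of knockouts and in 3 of 4 LPS ones. It was counted in all 9 small intestinal libraries of knockouts, from 0.0846 to 6.05 CPM. In wild types 4 of 10 small intestinal and 5 of 9 colon libraries were at 0, and the others ran from 0.271 to 5.69 CPM and from 0.289 to 7.05 CPM, so the regions overlapped. Cd79a differed by -2.20 ± 1.02 (adjusted p 0.217). Among the T cell markers 2 of 20 tested were called higher in the colon (Bcl11b and Cd2).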

How the data were processed

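The authors deposited raw read counts per gene symbol, 1 column per library, and these counts were used as deposited. RNA was extracted with the RNeasy Plus Micro kit and made into Smart-seq2 libraries without molecular identifiers, per the labels' protocols. Trim Galore 0.4.4, STAR 2.5.3, DESeq2 and GRCm38 are named, per the submitters' processing notes. The counter, the annotation and the use of strand were not given in the sources used here. Counting intervals (95%) and floors cover counting error only.

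Groups follow the labels. Some named items are not reported here. The members and the marker lists were chosen with earlier results of these data known. Each experiment was fitted over all genes passing filterByExpr (14090, 13107 and 14903) with TMM factors in 1 edgeR 4.0.16 quasi-likelihood model of all its groups (R 4.3.3), two-sided. Genes with a Benjamini-Hochberg adjusted p under 0.05 over all genes were called. Log2 CPM for correlations used a prior count of 2. The text names all 9 members, the 3 genes most correlated with each at most, and up to 3 called genes per list. Other genes named as context were chosen after their values were seen. Folds against groups without a count use a group floor of 3 counts, and those against 1 to 3 counts are ratios of pooled counts. No 2 replicates were identical (chi-square per degree of freedom at least 16.5).

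At 24 h 15 mice gave both regions and the others 1 region, per the labels. The same-mouse pairs deviated together with a mean correlation of 0.121, from -0.0443 upward and over 0.1 in 10. Alternatives were RLE size factors, DESeq2 1.42.0, no filter, sex, a replicate block, the compared groups alone, mouse number (10 and below against 11 and above), and each library left out. The model was also run on simulated counts, with an outcome that is not given here. Plots used Python 3.11.15 and matplotlib 3.10.9.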

Additional observations from a re-analysis of the deposited data

Results flagged for a closer look

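Within each group of 4 to 6 libraries, the library highest or lowest in a member was set against the others on log2 CPM by Dixon's test. Chance marks about 1 in 20 groups; 34 of 99 pairs of a member and a group were marked, in 20 libraries, and many rest on 1 to 3 counts against 0.

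In untreated mice, colon submucosal male 3 was the lowest and apart in 7 members (Cd3e, Trac, Ms4a4b, Cd79a, Fcmr, Pou2af1 and Jchain), and small intestinal submucosal male 3 in 1 (Ccr7). Of the myenteric libraries, colon male 1 was the highest and apart in 1 member (Ccr7), colon male 2 in 1 (Cd4), and small intestinal female 3, male 2 and male 3 in 1 each (Trac, Cd79a and Cd3e).

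At 2 h, colon LPS female 3 was the lowest in 1 member (Jchain, 0.821 CPM) and colon LPS male 4 the highest in 1 (Cd79a, 2.77 CPM).

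At 24 h in wild types, colon PBS mouse 14 was the highest and apart in 3 members (Cd3e, Trac and Ms4a4b) and mouse 22 in 1 (Ccr7, 1 count). LPS mouse 3 of the colon was so in 2 (Cd79a and Pou2af1), LPS mouse 16 of the colon in 1 (Trac), and LPS mice 3 and 8 of the small intestine in 1 each (Ms4a4b and Cd4). In knockouts, colon PBS mouse 7 was the highest in 3 members (Cd3e, Cd79a and Ccr7) and mouse 12 in 1 (Pou2af1). LPS mouse 2 of the colon was so in 3 (Cd4, Cd3e and Jchain), PBS mouse 15 of the small intestine in 2 (Cd3e and Jchain) and LPS mouse 6 of the small intestine in 1 (Pou2af1).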

How the results depend on the processing

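Neither called member reversed its direction under an alternative that was run, but both calls depended on the fit. Some untreated regional differences near 0 changed sign: colon minus small intestine, myenteric Jchain (-1.18) ran from -2.41 to 1.83 and myenteric Cd79a (0.15) from -1.73 to 1.52 with libraries left out, and submucosal Ms4a4b (0.04) was -0.60 at its lowest alternative. For Jchain at 2 h in the small intestine, RLE size factors, no filter and DESeq2 held the call at 1 member. It was 0 with sex as a covariate, with the replicate block (log2 fold change 4.34, adjusted p 0.279) and in a fit of the 2 groups alone (adjusted p 0.0719). Leaving out libraries gave 0 to 1 members, with log2 fold changes of 3.63 to 5.31, and the adjusted p over all alternatives ran from 3.31e-05 to 0.279. For wild-type colon at 24 h, the count was 3 with DESeq2 (Ccr7, Cd79a and Jchain), 0 with the mouse-number covariate (Ccr7 adjusted p 0.0631), 0 without the libraries rich in Epcam, and 0 to 1 with libraries left out. Ccr7 had log2 fold changes of 9.47 to 13.5 and adjusted p from 0.000145 to 0.101; RLE size factors, sex, no filter, the 2 groups alone and mice numbered 11 and above held the call.

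DESeq2 gave 1 member for LPS in knockout colon, 1 for knockout against wild type after LPS in the colon, 2 for LPS by genotype in the colon and 1 for the regions at 24 h. For the regions at 24 h the count was also 1 with the mouse-number covariate (Cd4, log2 difference -2.67, adjusted p 0.0476), 1 with mice numbered 11 and above and 1 without the libraries rich in Epcam (Cd79a both times), and 0 to 1 with libraries left out. The replicate block of mice, the pairing at 24 h, changed no member's call there. At 2 h and in untreated mice replicates share only a number (mean correlations 0.0602 and 0.0928).

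Counts over all genes moved more. They ran over the alternatives from 107 to 280 (LPS at 2 h, small intestine), 63 to 298 (colon), 0 to 57 (LPS by region) and 46 to 1168 (regions at 2 h). At 24 h they ran from 641 to 1894 and 412 to 2306 (LPS in wild-type small intestine and colon), 46 to 535 and 7 to 496 (in knockouts), 0 to 57 and 0 to 76 (genotype after PBS), 0 to 181 and 0 to 761 (genotype after LPS), 0 to 59 and 0 to 350 (LPS by genotype) and 345 to 1617 (regions). The cause was not tested. In untreated myenteric libraries most members lie at or under the floor of 3 counts, where differences were not detectable. Untreated Jchain in the small intestine, 7.74 on the log2 scale, was 10.99 with the replicate block and 6.97 to 10.81 with libraries left out.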
